A study of Mus musculus with 6 samples.

Results

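Steroid hormones are made from cholesterol and are interconverted by enzymes that many brain cells carry, so that a neuron can make or clear the steroids that reach its receptors. The 9 genes described here were chosen by symbol, as transporters and enzymes of steroid synthesis and metabolism known from brain tissue, with earlier results of these data known. Their presence, 9 of 9, among the 13886 genes with a deposited log2 CPM (log2 of the read count scaled to a common library size) is therefore not a result. They were *Star* and *Tspo*, linked to cholesterol entry into mitochondria, *Cyp19a1*, which encodes aromatase, *Srd5a1* and *Srd5a3* of the steroid reductase family, *Hsd17b4* and *Hsd17b12* of the 17β-hydroxysteroid dehydrogenase family, *Hsd11b1*, which regenerates active glucocorticoid, and *Cyp7b1*, a hydroxylase of oxysterols and neurosteroids. Aromatase turns testosterone into estradiol (E2), while the product of *Srd5a1* turns testosterone into dihydrotestosterone and progesterone into the precursor of allopregnanolone, so the balance of these enzymes sets which receptors a given androgen can reach. The medial amygdala (MeA) is known as a site of aromatase neurons and of neurons with sex steroid receptors.

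RNA was measured by RNA-seq in 6 libraries from Kiss1Cre+/Rpl22HA+/+ female mice, in which Cre under control of *Kiss1* tags the ribosomal protein Rpl22 with an HA epitope and the tagged ribosomes were immunoprecipitated from MeA micro-punches. All females, OVX and E2 alike, were ovariectomized at 8 weeks of age, received E2 for 4 days to drive Cre, and then had 7 days without it. The OVX group (3 libraries) had no further hormone and the E2 group (3 libraries) carried an E2 implant for 5 days, and brains of both were taken 5 days after the end of the washout. Each library is a pool of 4 mice, so the spread given is between pools, and a level is that of ribosome-bound mRNA and not of protein or enzyme activity.

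The scaled library sizes ran from 28.1M to 34.2M reads, and correlations between libraries across genes ran from 0.977 to 0.989. *Kiss1*, which E2 is known to raise in the MeA, is listed under 2 identifiers, and only the higher of them had a limma adjusted p under 0.05. The values of the other are not given here. The higher one averaged 1.75 ± 0.59 log2 CPM (SD, n = 3) without E2 and 3.66 ± 0.19 with it (SD, n = 3; log2 difference 1.91, SE 0.26, limma adjusted p = 0.00475). Without the mean-variance trend in limma this call was lost (adjusted p = 0.329), and it held in the other 15 alternatives, each of which left it at an adjusted p of 0.0430 or less. The gene lists for other cells were detected too, with 9 of 9 microglial, 7 of 7 astrocyte and 6 of 6 oligodendrocyte markers in the table. Summed CPM was 160 to 209 for microglial, 1645 to 2174 for astrocyte and 1480 to 2288 for oligodendrocyte markers over the 6 libraries. How much of the signal of the 9 genes came from such cells was not tested. In pools of this kind fewer cells of a type and less RNA per cell cannot be told apart.

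Aromatase is the member with the most direct tie to the treatment, and its gene is known to be transcribed from several alternative first exons in different tissues. RefSeq windows of 300 bases around annotated starts (250 before and 50 after, GRCm38.p6) were found for 5 of the 9 genes, as 7 windows, 3 of them for *Cyp19a1*. The parts before the start site and outside annotated exons are shown for 2 genes. *Cyp19a1* was taken because it has 3 such starts, which its gene-level counts do not tell apart. None of its 3 windows held an exonic base of the gene in GENCODE, so whether reads lying within these windows were counted is not known. Reads on the annotated exons count toward the gene whichever start was used. *Hsd17b12* was taken as the one member whose E2 and OVX libraries did not overlap. Capitals mark the half-sites GGTCA and TGACC (reverse complements of each other) of the estrogen response element GGTCANNNTGACC, a sequence that reads the same on both strands.
*Cyp19a1* window 1, minus strand, chr9:54268165-54268414, beyond the gene start in GENCODE: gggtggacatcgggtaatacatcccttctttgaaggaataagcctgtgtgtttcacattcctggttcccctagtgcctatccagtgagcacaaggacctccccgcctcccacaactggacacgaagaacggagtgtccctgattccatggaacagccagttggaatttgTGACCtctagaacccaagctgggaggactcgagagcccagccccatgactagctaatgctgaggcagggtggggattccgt
*Cyp19a1* window 2, minus strand, chr9:54228915-54229164, intronic: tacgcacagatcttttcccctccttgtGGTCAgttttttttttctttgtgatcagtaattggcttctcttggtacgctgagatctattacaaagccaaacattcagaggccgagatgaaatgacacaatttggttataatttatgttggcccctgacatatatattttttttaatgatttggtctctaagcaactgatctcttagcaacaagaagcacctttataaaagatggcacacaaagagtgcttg
*Cyp19a1* window 3, minus strand, chr9:54193744-54193993, intronic: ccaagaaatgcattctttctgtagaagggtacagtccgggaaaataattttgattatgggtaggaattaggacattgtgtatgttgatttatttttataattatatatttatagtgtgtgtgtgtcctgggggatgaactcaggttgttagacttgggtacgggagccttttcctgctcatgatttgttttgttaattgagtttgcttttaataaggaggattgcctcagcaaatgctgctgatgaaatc
*Hsd17b12*, minus strand, chr2:94157965-94158159, beyond the gene start in GENCODE: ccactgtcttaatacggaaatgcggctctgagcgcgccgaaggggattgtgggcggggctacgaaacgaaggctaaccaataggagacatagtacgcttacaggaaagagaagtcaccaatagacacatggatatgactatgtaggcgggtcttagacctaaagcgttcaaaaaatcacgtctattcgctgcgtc
A half-site stood in windows 1 and 2 of *Cyp19a1*, and neither window 3 nor the *Hsd17b12* window held one. Half-sites were found in 40.5% of all 32851 windows, and the whole element in 0.07% of all windows and in 0 of the 7 windows of these genes. The matches describe these letters in these windows only.

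Levels between genes were compared as CPM per kilobase of the longest coding transcript, since reads scale with length. The genes of the 17β-hydroxysteroid dehydrogenase family were the highest, and aromatase the lowest, of the 9. *Hsd17b12*, a 3-ketoacyl-CoA reductase of long fatty acid synthesis that can also reduce estrone, had a mean of 25.8 ± 1.58 CPM per kilobase (SD, n = 6 libraries). *Hsd17b4*, a peroxisomal enzyme of fatty acid breakdown that can also oxidize estradiol, had 16.8 ± 0.927. *Srd5a3*, known chiefly as the polyprenol reductase needed for protein glycosylation, followed with 8.15 ± 0.595. The ranges of these 3 genes over the 6 libraries overlapped neither with each other nor with that of the gene next in order, *Cyp7b1*, and the median over all listed genes with a transcript length was 8.42 CPM per kilobase.

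Below them the order was less distinct. *Cyp7b1* had a mean of 3.92 CPM per kilobase and *Srd5a1* 3.62, and *Cyp7b1* was the higher in 4 of 6 libraries. *Tspo* had 2.47, below *Srd5a1* in 6 of 6 libraries although their ranges overlapped. *Hsd11b1* followed with 2.03 and *Star* with 1.65, and the ranges of neighbours overlapped here too, with *Tspo* above *Hsd11b1* in 3 of 6 libraries and *Hsd11b1* above *Star* in 4 of 6. *Cyp19a1* had a mean of 0.795 CPM per kilobase, with 0.424 as the lowest and 1.46 as the highest library, and was below *Star* in 6 of 6 libraries. On the same scale *Srd5a1* ran from 3.11 to 4.67, so the reductase was above the aromatase in each library, both of which act on testosterone. By the share of all genes with a lower level per kilobase, *Cyp19a1* stood above 7.5% and *Hsd17b12* above 79.2% of the genes. With the length of all exons together in place of the longest coding transcript, chosen after the data were examined, *Srd5a3* moved from place 3 to place 5 and *Hsd11b1* changed places with *Star*, while places 1, 2 and 9 held the same genes.

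**Figure D1:**
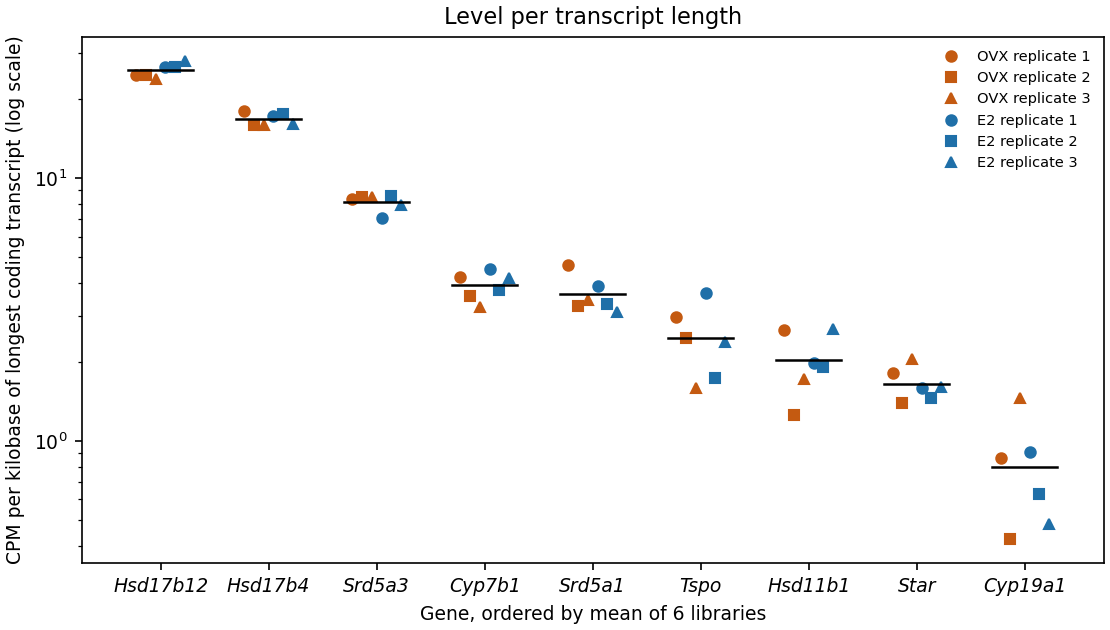
Level of the 9 genes as CPM per kilobase of the longest coding transcript, on a log scale, with a point per library (orange OVX, blue E2) and a bar at the mean of the 6 libraries. *Hsd17b12* and *Hsd17b4* lie at 15.9 and above in each library, and *Cyp19a1* at 1.46 and below.

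E2 and OVX libraries were compared to ask whether estradiol moves the transcripts that make and break down steroids in these cells. With limma on the log2 CPM and Benjamini-Hochberg adjustment over all 13886 genes, 0 of the 9 members had an adjusted p under 0.05 and 0 had an unadjusted p under 0.05, beside 0.288% and 8.56% of all genes. With voom weights on rebuilt counts the members past the adjusted threshold were also 0. Of the 9, 5 had a mean higher with E2 (51.1% of all genes did), and their median log2 difference was 0.03, beside 0.00 over all genes. Groups did not overlap for 1 of 9 members, as for 13.7% of all genes. The intervals of the differences are given with each gene, because they set how large a change these libraries leave room for.

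**Figure D2:**
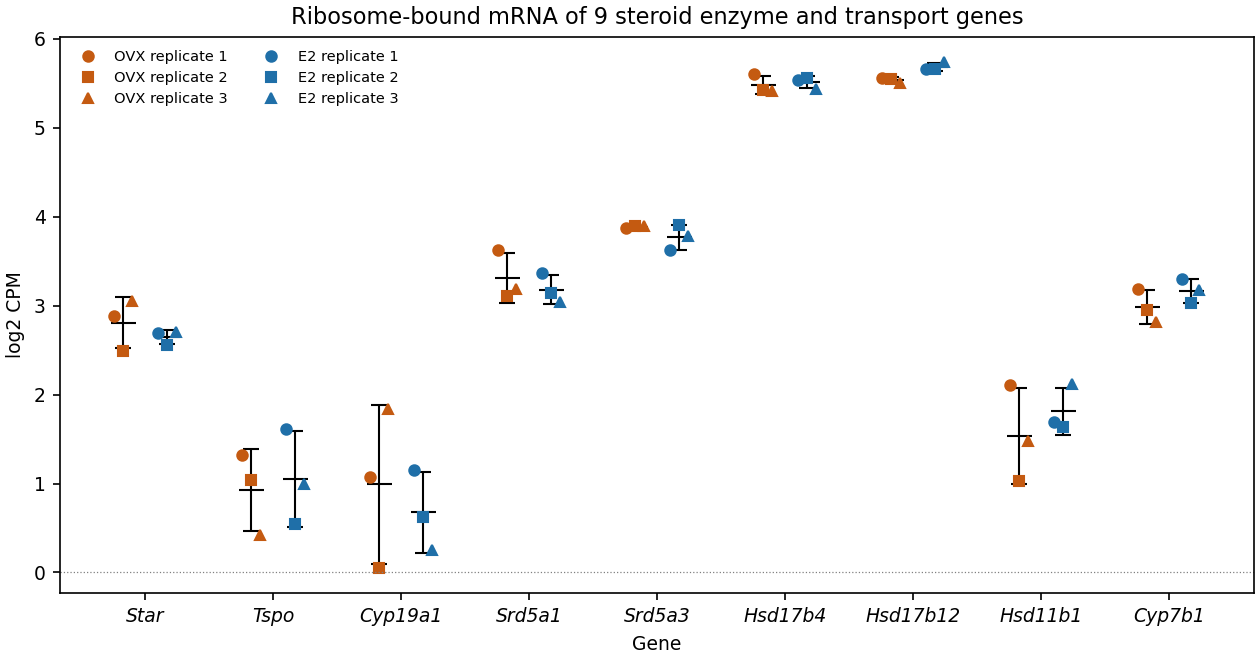
log2 CPM of each gene in each library (orange OVX, blue E2, symbol by replicate), with the mean and SD of the 3 libraries of each group in black; genes are in order of role, and values of different genes are not comparable without transcript length. The E2 and OVX points overlap for 8 of the 9 genes, and *Hsd17b12* is the exception.

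Cholesterol must cross into the mitochondrion before the first step of steroid synthesis, and the protein of *Star* carries out this transfer in steroid-making glands. *Star* (ENSMUSG00000031574, chromosome 8 from 25806555 to 25815982) was at 2.88, 2.49 and 3.05 log2 CPM in the OVX libraries and at 2.69, 2.56 and 2.70 in the E2 libraries. The E2 values lay within the range of the OVX values. The log2 difference, E2 minus OVX, was -0.16 (SE 0.19, 95% interval -0.58 to 0.26, adjusted p = 0.898), and the SD was 0.28 over the 3 OVX and 0.08 over the 3 E2 pools. It was -0.32 without OVX replicate 2 and -0.04 without OVX replicate 3.

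*Tspo* (ENSMUSG00000041736, chromosome 15 from 83563592 to 83574203) encodes a protein of the outer mitochondrial membrane that binds cholesterol and is abundant in microglia and vessel cells. Its log2 CPM was 1.32, 1.05 and 0.42 in OVX and 1.61, 0.54 and 0.99 in E2 libraries, so that both groups covered nearly the same span. The difference was 0.12 (SE 0.39, 95% interval -0.71 to 0.95, adjusted p = 0.970), and it was -0.13 without OVX replicate 3 and -0.16 without E2 replicate 1. The summed CPM of the 9 microglial markers was 166 to 209 in OVX and 160 to 180 in E2 libraries, with 0 of 9 past the threshold and 3 of 9 higher with E2; its part in the level of *Tspo* was not tested. *Tspo* shares 53 exonic bases with *Mcat* on the opposite strand, where reads of an unstranded library cannot be told apart.

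*Cyp19a1* (ENSMUSG00000032274, chromosome 9 from 54165937 to 54268110, 5 annotated transcripts) was at 1.07, 0.06 and 1.84 log2 CPM in the OVX libraries and at 1.16, 0.63 and 0.25 in the E2 libraries. The highest and the lowest of the 6 values were both OVX pools, and the E2 pools fell between them. In counts rebuilt from the log2 CPM these were 59, 35 and 100 reads in OVX and 67, 52 and 38 in E2 libraries. The authors, from the same dataset, describe *Cyp19a1* as not expressed in the *Kiss1* cells of the MeA, although the deposited values include it. Which cells these reads came from was not tested. The exact Poisson 95% intervals, which cover counting error only, were 24.4 to 48.7 reads for OVX replicate 2 and 81.4 to 121.6 for OVX replicate 3. On the CPM scale the coefficient of variation of the 3 OVX pools was 56.9%, and counting alone at this depth gives 12.4%. The difference between treatments was -0.31 (SE 0.46, 95% interval -1.30 to 0.67, adjusted p = 0.915), which as a ratio runs from 0.407 to 1.60 times the OVX level. It was 0.11 without OVX replicate 3, so its direction rests on that pool, and -0.78 without OVX replicate 2.

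**Figure D3:**
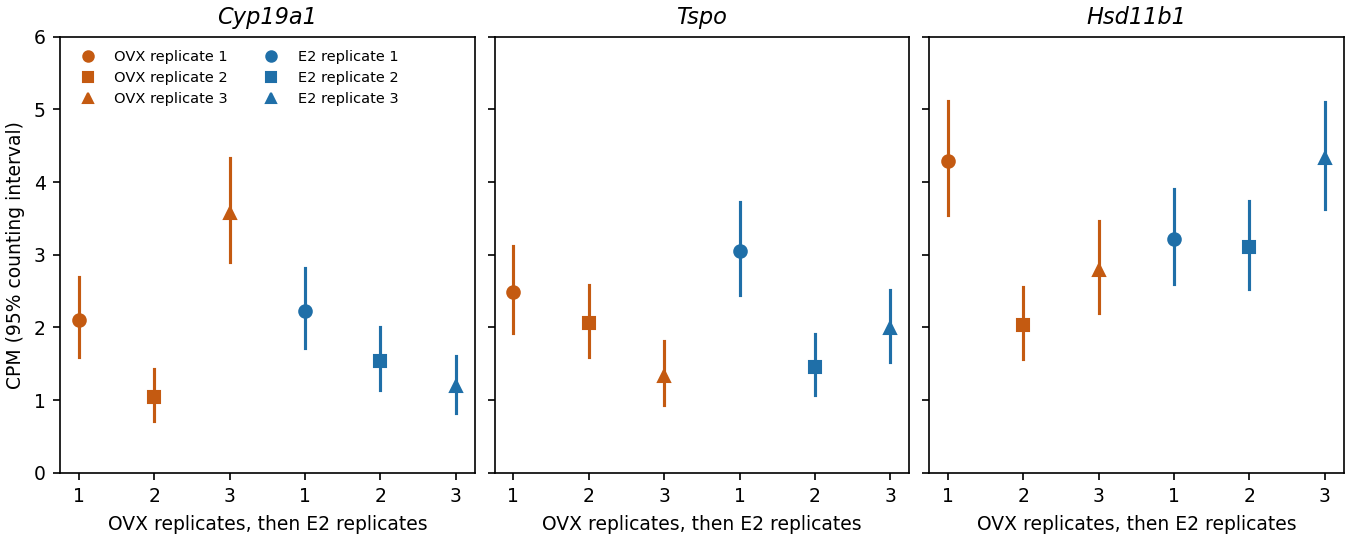
CPM of the 3 members with the fewest reads in each library (orange OVX, blue E2), with lines for the exact Poisson 95% interval of the rebuilt read count, which covers counting error only. For *Cyp19a1* the interval of OVX replicate 3 lies above those of the other OVX pools, and the E2 pools lie between the lowest and highest OVX pools.

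The 5 genes whose values over the 6 libraries were most like those of *Cyp19a1* were *Isoc2a* (r = 0.988), *Mrps21* (0.985), *Snrnp48* (0.984), *Atic* (0.983) and *Nat9* (0.982). These Pearson coefficients over 6 libraries are the highest among all genes, 76 of which had an r above 0.9, and they share the high value of OVX replicate 3 and the same depth scaling. None of the 5 passed the threshold between treatments, with log2 differences from -0.06 for *Nat9* to -0.04 for *Atic*.

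*Srd5a1* (ENSMUSG00000021594, chromosome 13 from 69573449 to 69611442) encodes the main steroid 5α-reductase of the adult brain. Its log2 CPM was 3.63, 3.11 and 3.19 in OVX and 3.36, 3.14 and 3.04 in E2 libraries. OVX replicate 1 was the highest pool and E2 replicate 3 the lowest, and without OVX replicate 1 the difference went from -0.13 (SE 0.18, 95% interval -0.50 to 0.25, adjusted p = 0.907) to 0.03. Rebuilt reads of *Srd5a1* were not whole numbers, such as 348.88 in OVX replicate 1, while those of the other 8 members were whole when rounded to 2 decimals; RSEM can assign part of a read to a gene. *Srd5a1* shares 476 exonic bases with the annotated transcript Gm17108 on the same strand.

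*Srd5a3* (ENSMUSG00000029233, chromosome 5 from 76140271 to 76155504) had 3.87, 3.89 and 3.90 in OVX and 3.62, 3.90 and 3.78 in E2 libraries on the log2 CPM scale. The OVX pools were nearly equal. E2 replicates 1 and 3 lay below them, and E2 replicate 2 was slightly above them. The difference between the groups was -0.12 (SE 0.13, 95% interval -0.39 to 0.15, adjusted p = 0.871), and it was -0.04 without E2 replicate 1 and -0.18 without E2 replicate 2. The coefficient of variation in OVX, 0.988%, was below the 4.74% that counting alone gives, so this closeness is no measure of precision.

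*Hsd17b4* (ENSMUSG00000024507, chromosome 18 from 50128201 to 50196269) was at 5.60, 5.43 and 5.42 log2 CPM in the OVX libraries and at 5.54, 5.56 and 5.43 in the E2 libraries. The groups covered the same range, with 1200 to 1600 rebuilt reads per library. Its difference of 0.03 (SE 0.08, 95% interval -0.15 to 0.20, adjusted p = 0.964) corresponds to an interval from 0.904 to 1.15 times the OVX level.

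*Hsd17b12* (ENSMUSG00000027195, chromosome 2 from 94032689 to 94157964) had the narrowest interval and the smallest p of the 9. Its log2 CPM was 5.56, 5.55 and 5.50 in OVX and 5.66, 5.66 and 5.74 in E2 libraries, and each E2 pool was above each OVX pool, as for 6.85% of all genes. The means were 5.54 ± 0.03 (SD, n = 3) and 5.69 ± 0.05 (SD, n = 3), a log2 difference of 0.15 (SE 0.07, 95% interval -0.01 to 0.30) that was not past the threshold (adjusted p = 0.603). Leaving out 1 library at a time gave differences of 0.12 to 0.16, with adjusted p-values of 0.594 to 0.890. The summed CPM of 6 markers listed for forebrain excitatory neurons also separated the groups, with 880 to 1137 in OVX and 668 to 871 in E2 libraries. *Slc17a7* had the highest level of the 6 (mean 9.47 log2 CPM, next *Tbr1* at 6.15) and was the 1 whose groups did not overlap. The authors report its transcript, as Vglut1, as expressed in the tagged cells. Of the 6 markers, 0 were higher with E2 and 0 passed the threshold. The part of this sum in the level of *Hsd17b12* was not tested. Among the genes most like *Hsd17b12* over the 6 libraries were *Rimkla* (r = 0.995), *Slc38a9* (0.984), *Fam107a* (0.978) and *Cyp4f15* (0.972), and 119 genes had an r above 0.9. These 4 were picked for their likeness to *Hsd17b12*, so a separation of the groups largely follows from that choice and adds nothing to its result. Each had all E2 pools above all OVX pools and none passed the threshold in the limma fit used here. *Fam107a* was nearest to it (log2 difference 0.46, adjusted p = 0.0558), and the authors, who used voom, list it as higher with E2.

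*Hsd11b1* (ENSMUSG00000016194, chromosome 1 from 193221634 to 193264075) encodes the enzyme that turns inert 11-keto glucocorticoid back into corticosterone in rodents, for which it needs NADPH made by the product of *H6pd*. It was at 2.10, 1.02 and 1.48 log2 CPM in the OVX libraries and at 1.69, 1.63 and 2.12 in the E2 libraries. The OVX pools spread widely and took in 2 of the 3 E2 pools, with rebuilt reads from 69 in OVX replicate 2 to 140 in E2 replicate 3. The difference was 0.28 (SE 0.31, 95% interval -0.39 to 0.94, adjusted p = 0.879), and it ran from 0.02 to 0.56 with each library left out in turn. *H6pd* had 2.51 ± 0.16 in OVX and 2.41 ± 0.16 in E2 libraries (SD, n = 3 each), with a difference of -0.10 (SE 0.20, adjusted p = 0.943).

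*Cyp7b1* (ENSMUSG00000039519, chromosome 3 from 18071950 to 18243338, 1 annotated transcript) encodes the hydroxylase that acts on oxysterols, on dehydroepiandrosterone and on an androgen metabolite that binds estrogen receptor beta. Its log2 CPM was 3.19, 2.95 and 2.81 in OVX and 3.30, 3.03 and 3.18 in E2 libraries. The groups overlapped, with the highest pool in E2 and the lowest in OVX. The difference was 0.18 (SE 0.17, 95% interval -0.18 to 0.55, adjusted p = 0.837), and it was higher with E2 under each alternative tried, from 0.10 to 0.29.

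The wider pathway was described with a list of 62 other genes of steroid transport, synthesis and metabolism, of which 29 were in the table and 33 were not. The table holds only genes past the minimum set by the authors, and 31 of the 33 symbols are in the annotation used here; *Hsd17b8* and *Sts* are not in it, and other names for them were not searched. No level is given for the 33. Those of the 31 that were counted under these symbols did not reach that minimum in either treatment group, which does not show that they are absent. Among the classical synthesis enzymes *Cyp11a1*, which cuts the cholesterol side chain, was listed, while *Cyp17a1*, *Hsd3b1*, *Hsd3b2*, *Hsd3b3*, *Hsd3b6*, *Hsd17b1* and *Hsd17b3* were not. *Cyp11a1* was at 0.95, -0.42 and -0.68 log2 CPM in the OVX libraries and at 0.55, 0.14 and 0.32 in the E2 libraries. It ranked 13626 of the 13886 genes by mean log2 CPM, and its log2 difference was 0.39 with an SE of 0.51 (adjusted p = 0.905), within the spread of the OVX pools.

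Of the 29 listed pathway genes, 0 had an adjusted p under 0.05 with limma and 4 an unadjusted p under 0.05, beside 0.288% and 8.56% of all genes. With voom weights the adjusted count was also 0. Their median log2 difference was 0.02, with 16 of 29 higher with E2, and groups did not overlap for 4 of 29, beside 13.7% of all genes. These 4 were *Sult1a1* and *Stard4*, higher with E2, and *Stard3* and *Hsd17b10*, lower with E2. Among all genes 6.85% had all E2 above all OVX libraries and 6.82% all E2 below them.

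**Figure D4:**
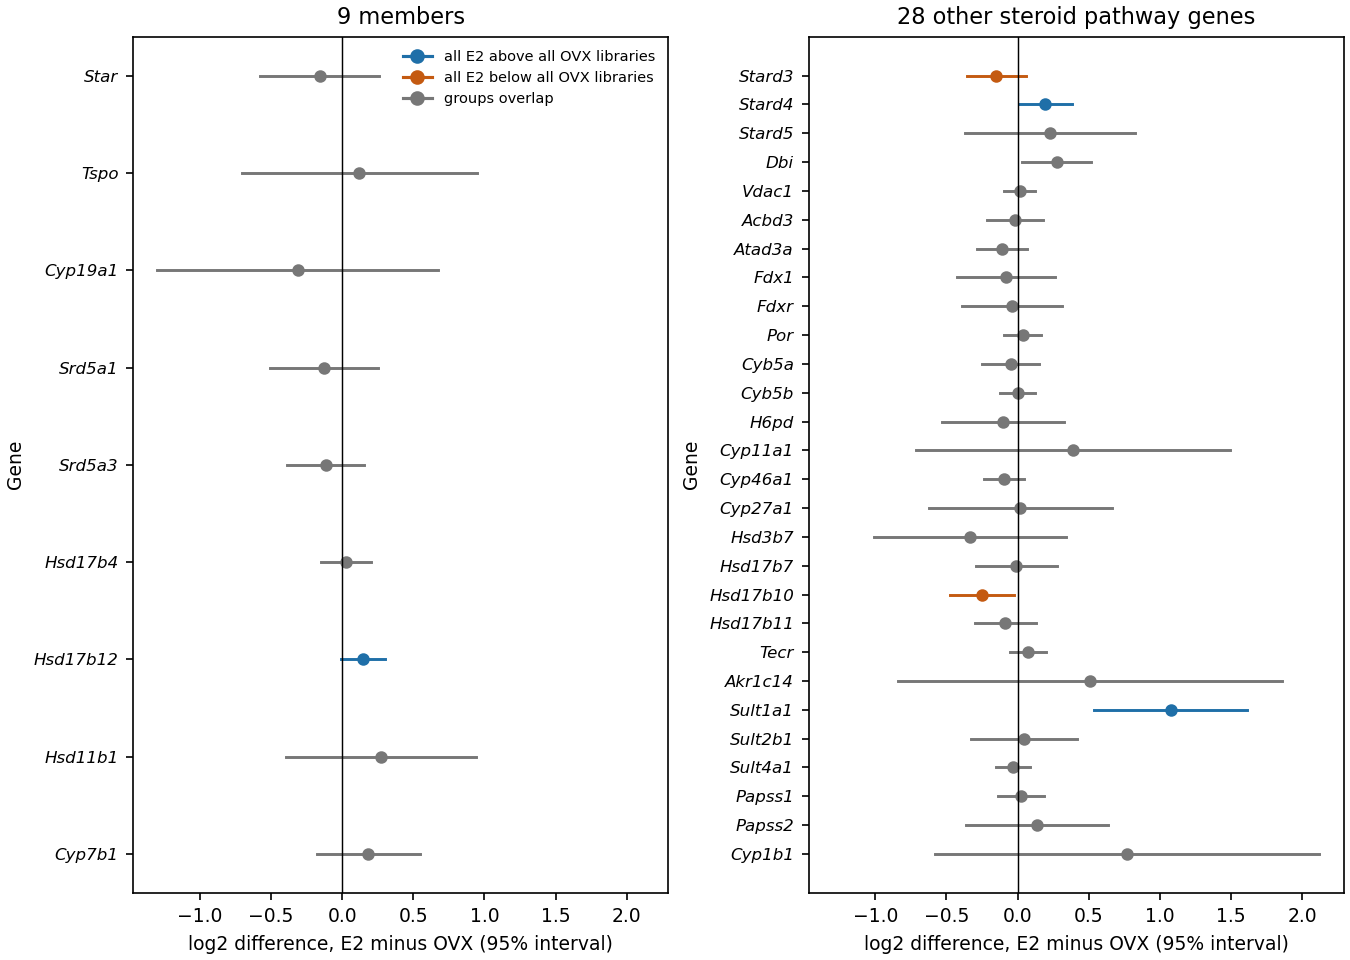
log2 difference, E2 minus OVX, with its 95% interval for the 9 members (left) and 28 of the 29 other listed steroid pathway genes (right); blue marks genes with all E2 above all OVX libraries, orange the reverse, and grey overlapping groups. The widest intervals belong to genes with low levels such as *Cyp19a1*, *Cyp11a1* and *Akr1c14*, and *Sult1a1* has a difference of 1.08.

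*Sult1a1*, a sulfotransferase of phenols that also takes estrogens, was at 1.30, 1.54 and 1.17 log2 CPM in the OVX libraries and at 2.69, 2.36 and 2.18 in the E2 libraries. Each E2 pool stood well above each OVX pool. The log2 difference was 1.08 (SE 0.25, 95% interval 0.54 to 1.61), and it was not past the threshold over all genes (adjusted p = 0.127, and from 0.0878 to 0.488 over the alternatives). The 7 astrocyte markers were also higher with E2 in 7 of 7, with 0 past the threshold and a summed CPM of 1645 to 2063 in OVX and 1806 to 2174 in E2 libraries; their part in this difference was not tested. *Sult1a1* shares 61 exonic bases with *Sgf29* on the opposite strand.

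Of the 7 listed pathway genes of cholesterol import, 4 were higher and 3 lower with E2, and 0 passed the threshold. The 2 of them whose groups did not overlap had differences of opposite sign. *Stard4*, a cytosolic sterol carrier, had 5.09, 5.19 and 5.25 in OVX and 5.35, 5.48 and 5.28 in E2 libraries (log2 difference 0.19, SE 0.09, adjusted p = 0.552). *Stard3*, a sterol carrier of late endosomes, had 4.83, 4.82 and 4.90 in OVX and 4.56, 4.74 and 4.81 in E2 libraries (log2 difference -0.15, SE 0.10, adjusted p = 0.731, and -0.08 without E2 replicate 1). In both the nearest pools of the groups were close to each other. *Hsd17b10*, a mitochondrial dehydrogenase of amino acid and steroid metabolism, had 4.70, 4.57 and 4.44 in OVX and 4.29, 4.31 and 4.36 in E2 libraries (log2 difference -0.25, SE 0.10, adjusted p = 0.516).

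Genes picked as the highest of their pathway role by mean log2 CPM are given as well, a choice made without regard to transcript length that sets no order of levels between genes. *Vdac1*, an outer membrane channel of mitochondria, had a mean of 8.74 and a difference of 0.02 (95% interval -0.09 to 0.13). *Sult4a1*, a sulfotransferase of neurons, had a mean of 8.79 and a difference of -0.04 (95% interval -0.15 to 0.08). *Cyp46a1*, which makes 24-hydroxycholesterol in neurons, had a mean of 8.13 and a difference of -0.09 (95% interval -0.23 to 0.05).

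Each of these 3 intervals took in 0. *Tecr*, a fatty acid enzyme related to the steroid reductases, had a mean of 8.60 and a difference of 0.07 (95% interval -0.05 to 0.20). *Cyb5b*, an electron carrier, had a mean of 7.59 and a difference of 0.00 (95% interval -0.12 to 0.13).

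Wider intervals were found at lower levels. *Hsd17b11*, a lipid droplet dehydrogenase, had a mean log2 CPM of 4.72 and a difference of -0.09 (95% interval -0.30 to 0.13). *Hsd3b7*, an enzyme of bile acid synthesis, had a mean of 1.12 and a difference of -0.33 (95% interval -1.01 to 0.34). *Akr1c14*, the 3α-hydroxysteroid dehydrogenase that makes allopregnanolone, had a mean of 0.12 and a difference of 0.51 (95% interval -0.84 to 1.86). At these levels changes of a size seen in *Sult1a1* would lie within the interval of *Akr1c14*.

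The receptors on which these steroids act were all listed, 9 of 9 from a list of steroid receptors, and 1 of them passed the threshold. *Esr1*, which encodes estrogen receptor alpha, was lower with E2, with 5.16 ± 0.20 in OVX and 4.45 ± 0.14 in E2 libraries (SD, n = 3 each, log2 difference -0.70, SE 0.12, limma adjusted p = 0.0189). This call was lost without the mean-variance trend (adjusted p = 0.407), without OVX replicate 1 (0.101), without OVX replicate 3 (0.0827) and without E2 replicate 2 (0.101), while the difference stayed below 0 under each alternative. The summed CPM of the forebrain excitatory markers was likewise lower in the E2 libraries, at 668 to 871 against 880 to 1137, with 0 of 6 higher and 0 of 6 past the threshold; its part in the level of *Esr1* was not tested.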

How the data were processed

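RiboTag immunoprecipitation libraries of MeA tissue (3 OVX, 3 E2, each 1 pool of 4 mice) were analysed. The deposited values were log2 CPM made by the authors: Trimmomatic 0.38, STAR 2.6.0a and RSEM on GRCm38, protein-coding genes, a mean CPM over 1 in a treatment group, TMM scaling and voom. A deposited table of the authors' own comparison (log2 fold changes and p-values) was not used. Values were fitted with limma 3.58.1 in R 4.3.3 over all 13886 genes, with a mean-variance trend, no term besides treatment, p-values on 2 sides and Benjamini-Hochberg adjustment (threshold 0.05). This stands in for voom weights, which need counts. Read counts were rebuilt by taking the lowest value of a library as a count of 0 plus 0.5. The pipeline was tested on simulated data.

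The 9 members and all lists were chosen with earlier results of these data known. Named were the members, pathway genes past the threshold or not overlapping, the highest pathway gene per role, the 5 genes most like *Cyp19a1* and the member of smallest p, *Kiss1*, and receptor genes past the threshold; *H6pd* was added after its values were seen, and some genes that the rule selects are not reported here. Marker lists covered neurons (5 genes, summed CPM 3718 to 4086), GABA neurons (3 genes, 358 to 509), forebrain excitatory neurons, astrocytes, oligodendrocytes, microglia, endothelial and mural cells (10 genes, 174 to 337) and choroid plexus (5 genes, 393 to 1069). Positions and lengths came from GENCODE release M21 (GRCm38), which holds 13873 of the 13886 identifiers, and sequences from RefSeq. Alternatives were another eBayes or weighting, other normalizations, a stricter filter, pseudocounts, a replicate block and each library left out. Genes in 3 against 3 pools cannot reach an exact permutation p under 0.1. The limma p-values rest on the spread between pools, with the variance of each gene drawn toward a trend over all genes.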

Additional observations from a re-analysis of the deposited data

How the results depend on the processing

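None of the 9 members passed the threshold under any of 16 alternatives (lowest adjusted p 0.586, for *Cyp19a1* without OVX replicate 2), nor did any of the 29 pathway genes. The direction turned only with a library left out: *Tspo* (0.12) to -0.13 without OVX replicate 3 and -0.16 without E2 replicate 1, *Cyp19a1* to 0.11 and *Hsd17b4* to 0.00 (-0.0028) without OVX replicate 3, and *Srd5a1* to 0.03 without OVX replicate 1. With a library left out *Tspo* ran from -0.16 to 0.38, *Cyp19a1* from -0.78 to 0.11, *Srd5a1* from -0.23 to 0.031 and *Hsd17b4* from -0.0028 to 0.088. *Star* ran from -0.32 to -0.04 and *Srd5a3* from -0.18 to -0.04. These and the other members that did not turn, 5 in all, kept their direction under the alternatives run. Over all genes, 40 passed the threshold (32 higher, 8 lower), 0 without the mean-variance trend (1017 at an unadjusted p under 0.05), and 20 to 66 with a library left out: 21 without OVX replicate 1, 26 without E2 replicate 1, 20 without E2 replicate 2 and 66 without E2 replicate 3. *Kiss1* and *Esr1* were past the threshold and lost it without the trend (adjusted p = 0.329 and 0.407), and *Esr1* also with 3 of the 6 libraries left out. The cause was not tested. Same-numbered libraries did not deviate together (correlations across genes of -0.02, -0.12 and -0.08), and a replicate block gave 35 genes, with 0 members and 0 pathway genes. *Cyp19a1*, *Tspo* and *Hsd11b1* had the fewest reads, 35 to 140 per library, and in both groups their pools spread more widely than counting error gives. The pools of *Srd5a1*, *Hsd17b4* and *Cyp7b1*, with more reads, did so in both groups too. Depth as the limit was not tested.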
